A study of Mus musculus with 6 samples.

Results

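The genes encoding the proteins of the cytosolic ribosome were followed in the myometrium, the smooth muscle wall of the uterus, of pregnant mice. They were taken by symbol: Rpl or Rps followed by a number with an optional a, x or l, together with Rplp0, Rplp1, Rplp2 and Rpsa, which gave 83 of 55055 genes in the deposited tables. The names chose 51 genes of the large subunit and 32 of the small subunit; 80 are annotated as protein-coding, while Rpl6l, Rpl32l and Rps4l are annotated as processed pseudogenes. Ribosomal proteins with other symbols, such as Rack1, Fau and Rps3a1, are not members and served as a comparison list.

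The study compared mice whose Tcf23 gene had been knocked out with CRISPR/Cas9 (KO) with wild-type mice (WT); Tcf23 is a transcription factor of the basic helix-loop-helix family. Each genotype had 3 libraries, each from a different animal according to the series design. All animals were pregnant and labelled E19.5, while the series design gives gestational day 19; the strain, the guide and the number of founder lines are not given in the labels. RNA was poly(A)-selected from bulk tissue, so fewer cells of a type and less RNA per cell cannot be told apart. Libraries held 39939686 to 65036402 counts on genes, and Tcf23 had 4203, 5970 and 3360 counts in WT against 0, 2 and 1 in KO. Smooth muscle markers such as Acta2, Myh11 and Des were all detected in every library; the summed level of the 10 listed markers was 27070 to 30970 CPM in WT and 15366 to 38076 CPM in KO, lowest in KO replicate 3.

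A ribosome is built from ribosomal RNA and one copy each of most of these proteins, so cells generally make them in matched amounts. Their messenger RNAs are short and abundant and usually begin with a terminal oligopyrimidine (TOP) tract, a C followed by a run of C and T letters, through which the mTOR kinase and the La-related protein Larp1 control their translation. Measurements of messenger RNA like those below do not show that translational step.

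The tract is visible at the annotated start of members that behaved differently across the libraries described below. Promoters of 61 of the 83 members were found in RefSeq (GRCm38.p6), and 14 of them (23.0%) had a C followed by at least 4 pyrimidines at the annotated start, against 3.01% of 27025 promoters. The following 6 were chosen after the values were seen because they carry such a run. Each line gives 60 bases before the start and 20 from it, on the gene's strand, with the pyrimidine run in capitals.

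Rplp2, chr7:141447591-141447670, plus strand: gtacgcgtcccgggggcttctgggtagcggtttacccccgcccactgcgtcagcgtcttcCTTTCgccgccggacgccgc
Rps27, chr3:90213629-90213708, minus strand: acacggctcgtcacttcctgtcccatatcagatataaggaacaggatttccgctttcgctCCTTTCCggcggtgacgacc
Rpl38, chr11:114668520-114668599, plus strand: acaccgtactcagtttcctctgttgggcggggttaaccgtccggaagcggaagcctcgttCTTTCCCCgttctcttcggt
Rps6, chr4:86857348-86857427, minus strand: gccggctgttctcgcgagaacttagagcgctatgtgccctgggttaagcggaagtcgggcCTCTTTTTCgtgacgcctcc
Rpl15, chr14:18270967-18271046, minus strand: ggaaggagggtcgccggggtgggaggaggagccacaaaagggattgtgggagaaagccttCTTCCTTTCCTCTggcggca
Rps10, chr17:27635225-27635304, minus strand: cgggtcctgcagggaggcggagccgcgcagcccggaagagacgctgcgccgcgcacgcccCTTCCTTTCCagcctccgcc

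Other short sequences were also found more often in the members' promoters. Over windows of 300 bases, read on both strands, CTTTCC was present in 52.5% of the 61 members and 29.3% of all promoters. CCGGAAG, a core of sites for ETS-family factors, was present in 41.0% and 9.93%. These shares describe letters, and a match is not a measured binding site.

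The members' messenger RNA did not differ between the genotypes past the threshold, but it differed widely between animals of the KO group. Summed over the 83 members, it made up 4.28%, 4.44% and 3.92% of counts in WT replicates 1, 2 and 3 and 5.28%, 3.02% and 4.23% in KO replicates 1, 2 and 3. The KO group therefore held both the highest and the lowest library, with WT between them. The group means were 4.21% ± 0.266 in WT and 4.17% ± 1.13 in KO (SD, n = 3 each), and the share in KO replicate 1 was 1.75 times that in KO replicate 2. Exact 95% binomial intervals were at most 0.00624 percentage points to either side and cover counting error only.

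**Figure D1:**
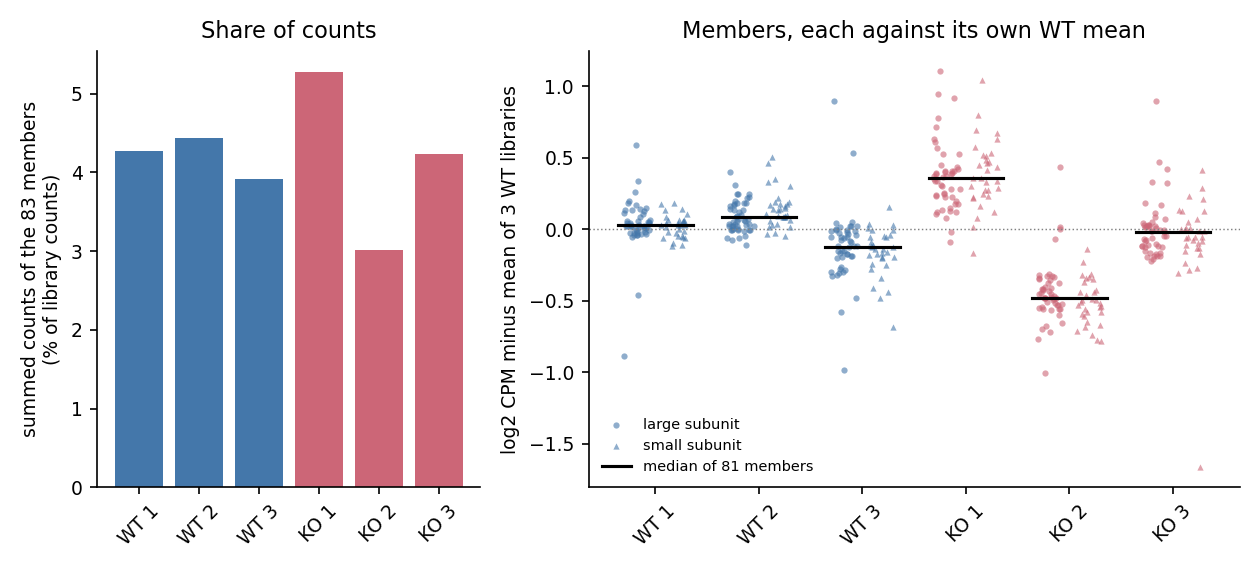
Left, summed counts of the 83 members as a percent of each library's counts. Right, each of the 81 tested members (circles, large subunit; triangles, small subunit) as log2 CPM minus its mean over the 3 WT libraries, with the median of all members as a black line; the median was 0.36 in KO replicate 1 and −0.48 in KO replicate 2, outside the WT range of −0.12 to 0.09.

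In edgeR's quasi-likelihood test over 19599 genes, 81 members had enough counts to be tested. None (0 of 81) passed an adjusted p of 0.05, where the background was 4 of 19599 genes (0.0204%), all lower. A fit that added a replicate block called 2 genes higher and 5 lower, and again 0 members. No member had an unadjusted p under 0.05 either, against 8.56% of all genes. DESeq2 also called 0 members, against 1.89% of the genes to which it gave an adjusted p, and 0 members had an unadjusted p under 0.05 (5.71% of genes). The members' adjusted p ran from 0.688 to 1.00. Their standard errors on the log2 scale ran from 0.16 to 0.51 with a median of 0.23. Differences of that size, and larger ones, could be missed with these libraries. Even the lowest and highest log2 changes of the members, −0.39 and 0.49, did not pass.

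The log2 change from WT to KO had a median of −0.02 over the 81 members, with a range of −0.39 to 0.49, beside 0.01 over all genes tested. It was above 0 for 33 of 81 members, against 52.1% of all genes. The count moved both ways with the method. It was 45 with upper-quartile scaling, 23 with the replicate block, 21 with limma-voom and 20 with limma on the deposited normalized signal. The large subunit (49 members, median −0.03) and the small subunit (32 members, median −0.01) had similar medians. The median depended on which KO library was present: without KO replicate 1 it was −0.24 and 4 members were above 0, and without KO replicate 2 it was 0.17 and 68 were above 0. The 81 members share these libraries and are not independent measurements of genotype.

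Groups that did not overlap were found for 2 members, both lower in KO, which is 2.47% of members against 14.2% of all genes (7.22% higher and 7.01% lower). One was Rps26, a protein near the messenger RNA exit channel of the small subunit (ENSMUSG00000025362, mm10 chromosome 10, 128624537 to 128626747, minus strand). It had 741, 710 and 754 CPM in WT and 655, 468 and 622 CPM in KO. The difference was −0.34 ± 0.18 (log2 ± SE; edgeR adjusted p = 0.688), with all 3 KO libraries below all 3 WT libraries. The other was Rpl15, a large-subunit protein (ENSMUSG00000012405, chromosome 14, 18267823 to 18271391, minus strand), with 466, 486 and 485 CPM in WT and 449, 340 and 421 CPM in KO. Its difference was −0.25 ± 0.16 (edgeR adjusted p = 0.771), and the nearest pair of libraries from different genotypes was 466 and 449 CPM.

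Across the 6 libraries the members moved largely together. A score for each library was taken as the median over the 81 members of log2 CPM minus the WT mean of that member. It was 0.03, 0.09 and −0.12 in WT replicates 1, 2 and 3 and 0.36, −0.48 and −0.02 in KO replicates 1, 2 and 3. In KO replicate 1, 78 of 81 members were above their WT mean, and in KO replicate 2 only 3 were. KO replicate 3 lay close to WT, with 32 members above the WT mean and 49 members within the range of the 3 WT libraries.

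The same pair of libraries bounded most members. KO replicate 1 was the highest of the 6 libraries for 72 of 81 members, against 23.3% of all genes, and KO replicate 2 was the lowest for 73, against 20.9%. Both held for 65 members (80.2%), against 7.81% of all genes. These extremes did not depend on the scaling: KO replicate 1 scored 0.35 to 0.42 and KO replicate 2 scored −0.48 to −0.46 under TMM, RLE, upper-quartile and unscaled totals.

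One shared pattern held most of the members' variance. The first principal component carried 73.4% of it, and the next 12.1%, beside 29.0% on the first component over all genes tested. Each member's SD over the 6 libraries had a median of 0.28 log2, which became 0.11 once the score of each library was subtracted. The SD became smaller for 79 of 81 members, the exceptions being Rpl15 and Rpl3l. After subtraction, 70 members stayed within 0.3 log2 of their own mean in every library. Rps3, a small-subunit protein at the messenger RNA entry channel, followed the score most closely, with 782, 819 and 703 CPM in WT, 967, 543 and 766 CPM in KO, and an SD of 0.016 after subtraction.

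**Figure D2:**
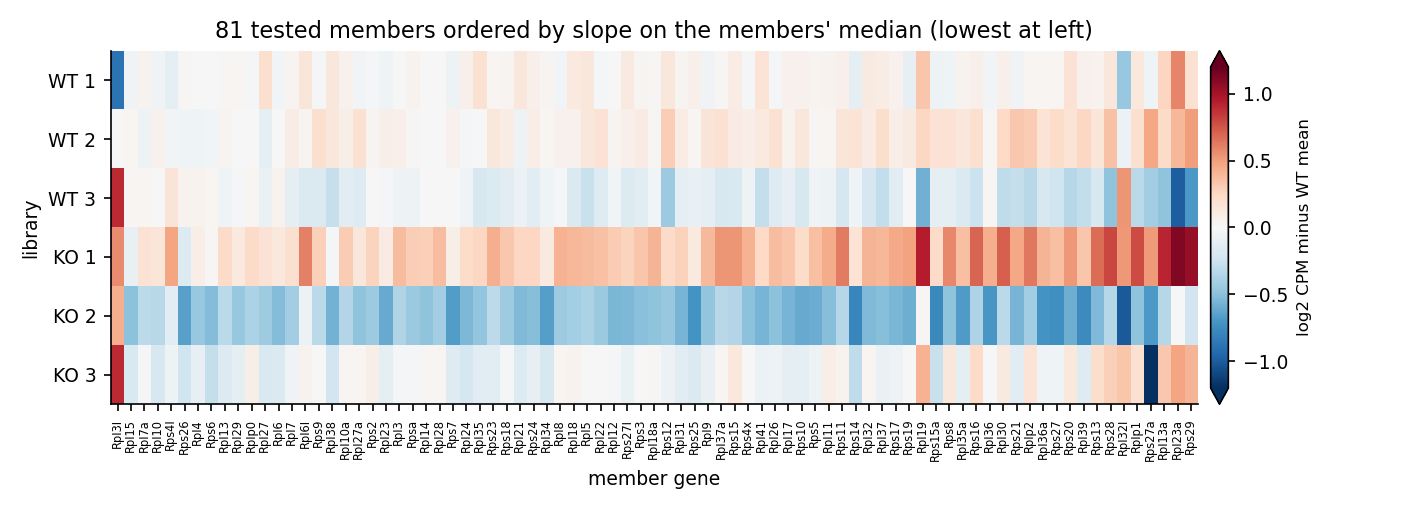
Log2 CPM minus the WT mean (colour, log2 units; values past 1.2 in either direction share the end colours) for the 81 tested members (columns) in the 6 libraries (rows), ordered by slope on the members' score. The KO replicate 1 row is mostly above 0 (78 members) and the KO replicate 2 row mostly below 0 (78 members), while Rpl3l at the left and Rps27a at the right break the pattern.

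This degree of shared movement was not limited to the cytosolic ribosomal proteins. Mitochondrial ribosomal proteins, encoded in the nucleus for a different ribosome, had 69.8% of their variance on the first component, translation factors 68.3% and ribosome biogenesis genes 67.1%. Their library scores also had KO replicate 1 highest and KO replicate 2 lowest. Scores in these 2 libraries were 0.31 and −0.24 for the 78 mitochondrial ribosomal proteins, 0.14 and −0.28 for 40 translation factors, 0.17 and −0.27 for 50 biogenesis and RNA polymerase I genes, and 0.15 and −0.34 for 20 genes of other proteins with TOP messenger RNAs. The members' own scores, 0.36 and −0.48, had the wider spread. The mTOR pathway and TOP control list (27 genes) did not share the pattern, at −0.10 and −0.05, with 46.4% on its first component.

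Transcript length moved with the same libraries. Other protein-coding genes with transcripts under 1000 bases (1192 genes, members left out) had a median log2 difference from the WT mean of 0.04, 0.01 and −0.05 in WT and 0.28, −0.19 and 0.01 in KO replicates 1, 2 and 3. Between KO replicates 1 and 2 the short genes differed by 0.47 log2 and the members by 0.84 log2. In KO replicate 1 the median was 0.28 both under 700 bases and from 700 to under 1000 bases, and fell from there by bin to −0.26 in genes of 4000 bases or more. In KO replicate 2 it ran the other way, from −0.24 to 0.07. Members with transcripts under 500 bases (12) had a median slope on the score of 1.34, those from 500 to under 1000 bases (51) 1.00, and those of 1000 bases or more (18) 0.86, where 1 means that the member moves as much as the members' median. The part of length in the members' spread was not tested.

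**Figure D3:**
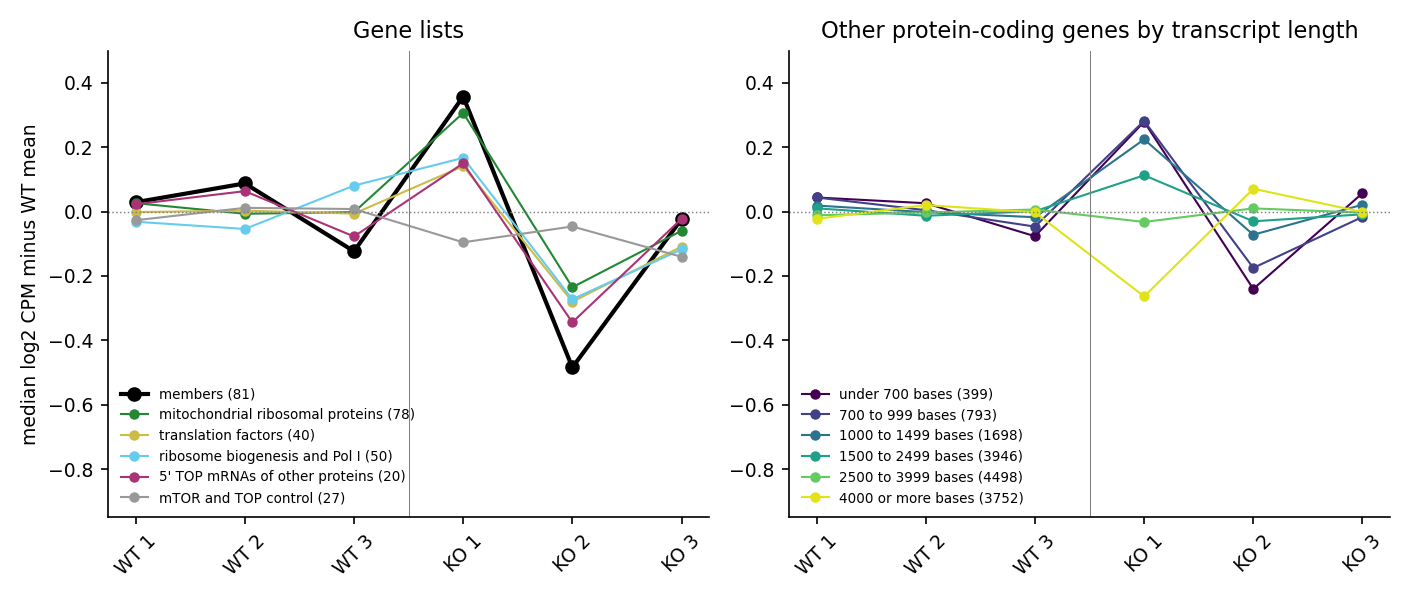
Median over genes of log2 CPM minus the WT mean (vertical axes, log2 units) in each library, for the members and 5 gene lists (left) and for other protein-coding genes in 6 bins of transcript length (right; numbers of genes in parentheses). KO replicate 1 is high and KO replicate 2 low for the members (0.36 and −0.48) and, to a smaller extent, for genes under 700 bases (0.28 and −0.24), while genes of 4000 bases or more lie at −0.26 and 0.07.

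Markers of other tissues were also unequal among the KO libraries. Of 10 tested placenta and fetal membrane genes, 5 had a positive log2 change, and the summed level of the 11 listed was 42.1 to 43.7 CPM in WT but 298, 44.9 and 4.18 CPM in KO replicates 1, 2 and 3, with median scores of 0.89, −1.78 and −3.82; Prl8a9 was at 0 in KO replicate 3, and Ctsq at 0 there and in WT replicate 3. The 7 erythroid genes summed to 50.4 to 108 CPM in WT and to 279, 75.1 and 106 CPM in KO replicates 1, 2 and 3. None of the 7 was at 0 in any library. Smooth muscle scores were 0.23, 0.43 and −0.88 in KO replicates 1, 2 and 3 (−0.25 to 0.17 in WT). Mitochondrially encoded genes took 1.97 to 2.91% of counts, with 2.23% and 2.18% in KO replicates 1 and 2. Epithelial scores were 0.06, −1.06 and 0.94 in KO replicates 1, 2 and 3 (−0.54 to 0.56 in WT). Endothelial scores were −0.14, 0.48 and −0.47 in the same order (−0.27 to 0.17 in WT). Scores of dividing cells were −0.55, −0.17 and 0.60 (−0.11 to 0.23 in WT). Fibroblast scores of −0.18 to 0.19 and macrophage scores of −0.04 to 0.24 in KO lay within their WT ranges. The neutrophil, B and plasma cell, and NK and T cell lists were above their WT ranges in all 3 KO libraries. In edgeR's test, 0 of their genes passed an adjusted p of 0.05. Summed levels in WT and KO were 6.79 to 10.7 and 20.3 to 31.2 CPM for neutrophils. For NK and T cells they were 7.13 to 8.34 and 13.4 to 20.2 CPM. For B and plasma cells they were 99.3 to 364 and 683 to 1635 CPM. Neutrophil scores were 1.68 to 2.67 (−0.31 to 0.51 in WT), with a positive change in 5 of 5 tested genes. B and plasma cell scores were 1.28 to 2.07 (−0.49 to 0.33 in WT), with 7 of 7 positive. NK and T cell scores were 0.76 to 1.54 (−0.23 to 0.21 in WT), with 8 of 8 positive. Mesothelial scores were −1.87 to −1.43 in KO and 1.12, 0.20 and −1.22 in WT, with 1 of 6 positive. The summed mesothelial level overlapped, at 382 to 1159 CPM in KO and 597 to 1152 CPM in WT. The part of tissue content in the members' spread was not tested.

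Level was compared between genes only per transcript length, as CPM per 1000 bases in WT. The highest 5 members were Rpl41 (3235 ± 534, SD, n = 3), Rplp1 (1962 ± 362), Rps24 (1657 ± 137), Rps15 (1556 ± 162) and Rps27 (1404 ± 221). Rpl41 encodes a very small basic peptide of the large subunit. The last 3 lay within their spreads of each other. With the length of all annotated exons in place of the transcript length, 3 of these 5 stayed among the highest 5. The quartiles of tested members were 417 and 834 CPM per 1000 bases, and Rpl3l was lowest at 0.26.

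The acidic stalk of the large subunit, which recruits translation factors, is formed by Rplp0 with Rplp1 and Rplp2. Rplp0 had 1647, 1657 and 1689 CPM in WT and 1948, 1279 and 1748 CPM in KO. Rplp1 had 1057, 1108 and 773 CPM in WT and 1660, 694 and 1097 CPM in KO. Rplp2 had 202, 246 and 158 CPM in WT and 308, 149 and 223 CPM in KO. All 3 were highest in KO replicate 1 and lowest in KO replicate 2. Their amplitudes differed, with a slope of 0.67 for Rplp0, 1.51 for Rplp1 and 1.31 for Rplp2. No genotype difference passed the test in edgeR, with adjusted p of 0.925 to 0.999.

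Rpl5 and Rpl11 bind 5S ribosomal RNA and, when free of the ribosome, the p53 regulator Mdm2. Rpl5 had 877, 878 and 665 CPM in WT and 1044, 615 and 796 CPM in KO. Rpl11 had 415, 409 and 386 CPM in WT and 550, 282 and 427 CPM in KO. Both followed the score, with slopes of 0.97 and 1.09. Their genotype differences were 0.02 ± 0.24 and 0.06 ± 0.24 (log2 ± SE).

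Rpl10a and Rpl38 are large-subunit proteins known from work on ribosomes that differ in composition. Rpl10a had 569, 577 and 504 CPM in WT and 681, 430 and 560 CPM in KO, and followed the score. Rpl38, whose mutation in mice alters the axial skeleton, had 558, 557 and 418 CPM in WT and 499, 341 and 433 CPM in KO, with a difference of −0.27 ± 0.20 (edgeR adjusted p = 0.821). It was 1 of 9 tested members for which KO replicate 1 was not the highest library.

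Among the small-subunit proteins, Rps6 is the substrate of the S6 kinases below mTOR. It had 674, 658 and 685 CPM in WT and 679, 470 and 550 CPM in KO, a difference of −0.25 ± 0.18 (edgeR adjusted p = 0.802), with KO replicate 1 among the WT values. Rpsa, which is also known as a laminin-binding protein, had 1040, 1020 and 969 CPM in WT and 1242, 743 and 1001 CPM in KO. Rps25, needed by several viral internal ribosome entry sites, had 532, 519 and 479 CPM in WT and 554, 310 and 452 CPM in KO. Rpsa and Rps25 were both highest in KO replicate 1 and lowest in KO replicate 2.

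Members with and without a TOP run at the annotated start had similar slopes. The 14 tested members with a run had slopes of 0.49 to 1.51 with a median of 0.98. The highest was that of Rpl32l, annotated as a processed pseudogene, with 233 counts in all, and the next was 1.37. The 45 tested members with a promoter but no run had a median of 0.97. Of the starts printed above, Rpl15, with the longest run of 13 bases, had the lowest slope of the 14, and Rplp2 and Rps27, with runs of 5 and 7 bases, had slopes of 1.31 and 1.37. Annotated starts may not be the starts used in myometrium. Members without a run there may also begin with a TOP tract, so this comparison cannot separate TOP from other messenger RNAs.

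To look for members that depart from the common movement with genotype, the test was repeated with every library scaled to the same median level of the members. No member passed (0 of 81), against 5 of 19599 genes (0.0255%), and 0 members had an unadjusted p under 0.05, against 5.53% of all genes. With the replicate block this fit called 173 genes higher and 87 lower, with 0 members among them. The departures described next are values of single libraries and carry no test. A departure is a member's log2 level in a library after the library's score is subtracted, relative to its own mean over the 6 libraries. Departures of at least 0.5 log2 in some library were found for 8 members: Rps27a, Rpl23a, Rps29, Rpl19, Rpl13a, Rps28, Rpl3l and Rpl32l.

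Rps27a is made as a fusion of ubiquitin with a small-subunit protein, and thus supplies the cell with ubiquitin as well (ENSMUSG00000020460, chromosome 11, 29545846 to 29548109, minus strand). It had 263, 375 and 204 CPM in WT and 388, 169 and 85.5 CPM in KO. KO replicates 1 and 2 were on the members' side of WT, but KO replicate 3 was the lowest of all libraries, with a departure of −1.36 log2 (0.66 in WT replicate 2 and 0.44 in KO replicate 1), whereas the members' score there was −0.02. Its genotype difference was −0.39 ± 0.51 (log2 ± SE; edgeR adjusted p = 0.920), the lowest of the members, and was between −1.13 and −0.01 when single libraries were left out. Its 4 annotated copies summed to 11.8 CPM in KO replicate 3 and to 10.4 to 10.8 CPM in WT. Whether reads of the gene were lost or placed elsewhere was not tested.

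A further group was low in WT replicate 3 and high in KO replicate 1, beyond the members' common movement. Rps29, a small zinc-binding protein, had 517, 646 and 283 CPM in WT and 941, 389 and 606 CPM in KO. Its departures were −0.79 log2 in WT replicate 3 and 0.46 in KO replicate 1. Rpl19, at a bridge between the subunits, had 290, 273 and 154 CPM in WT and 442, 232 and 307 CPM in KO, with departures of −0.71 and 0.33. Rpl13a, also known as a component of an interferon-activated inhibitor of translation, had 699, 684 and 418 CPM in WT and 1103, 460 and 729 CPM in KO, with departures of −0.54 and 0.38. Rps28 had 487, 567 and 319 CPM in WT and 775, 350 and 543 CPM in KO, with departures of −0.51 and 0.29. In each of these 4, WT replicate 3 and not KO replicate 2 was the lowest library.

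Another group had a small amplitude. Rpl15, Rps26, Rpl7a, Rpl10 and Rpl4 had slopes of 0.49, 0.59, 0.53, 0.55 and 0.59. Rpl10, a late-joining protein next to the peptidyl transferase centre, had 832, 886 and 852 CPM in WT and 947, 682 and 749 CPM in KO. Rpl4 had 1234, 1190 and 1266 CPM in WT and 1298, 899 and 1145 CPM in KO. In Rpl15 and Rps26 the departures in KO replicate 1 were −0.35 and −0.37 log2 beside a members' score of 0.36 in that library.

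**Figure D4:**
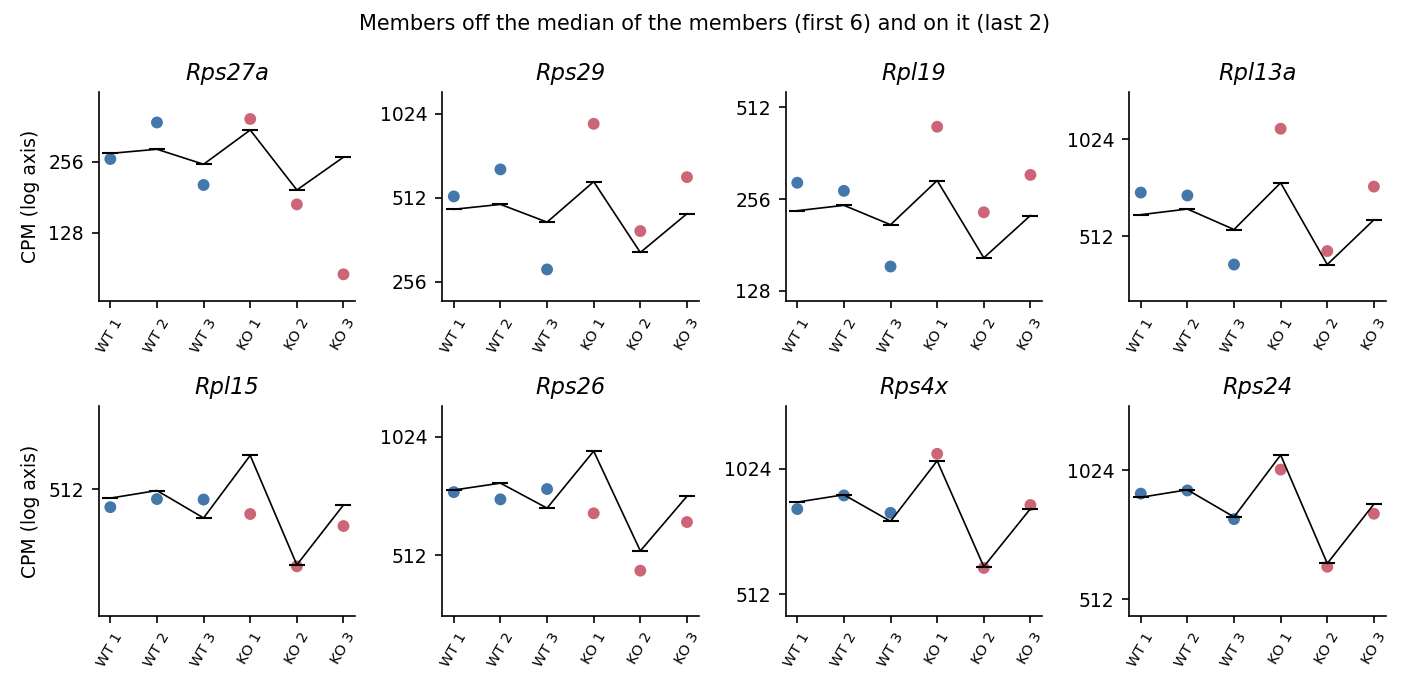
CPM (log axis, a separate range for each gene) of 8 members in the 6 libraries (blue, WT; red, KO). The black line is the gene's geometric mean in WT moved by the members' score; Rps27a lies below it in KO replicate 3 (85.5 CPM), Rps29, Rpl19 and Rpl13a below it in WT replicate 3, Rpl15 and Rps26 below it in KO replicate 1, and Rps4x and Rps24 stay near it.

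Rpl23a, a protein at the exit of the nascent chain tunnel (ENSMUSG00000058546, chromosome 11, 78180935 to 78183584, minus strand) has near-identical copies with counts of their own. It had 47.5, 41.7 and 15.9 CPM in WT and 68.2, 31.6 and 43.8 CPM in KO, with a departure of −1.15 log2 in WT replicate 3. Its processed pseudogenes Rpl23a-ps3 (chromosome 14, 34170655 to 34171122), Gm10335, Gm3362 and Gm10132 match 99.1 to 99.8% of the aligned coding bases. The stretch of coding bases 110 to 184, counted from the A of the start codon, is shown for the gene and for the 2 copies that differ in it, with the differing bases in capitals.

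Rpl23a: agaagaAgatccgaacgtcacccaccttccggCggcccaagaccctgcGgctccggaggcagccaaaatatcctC
Rpl23a-ps3: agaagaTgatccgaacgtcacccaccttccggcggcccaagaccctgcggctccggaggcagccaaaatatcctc
Gm3362: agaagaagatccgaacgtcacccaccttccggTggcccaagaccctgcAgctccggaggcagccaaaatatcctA

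Rpl23a-ps3 differs by A116T alone, and Gm3362 by C142T, G158A, C184A and C194T, the last outside the stretch. Gm10335 differs by C248T and Gm10132 by C246T. The copies had their highest level where Rpl23a had its lowest: in WT replicate 3, Rpl23a-ps3 was at 50.6 CPM against 28.0 and 33.5 in the other WT libraries, and Gm3362 at 44.8 against 20.9 and 26.2. Rpl23a and its 7 annotated copies together had 139, 145 and 175 CPM in WT and 139, 73.0 and 113 CPM in KO. In the sum, chosen after the values were seen, WT replicate 3 was the highest library instead of the lowest, and the log2 ratio of KO to WT means was −0.50 where the fit for Rpl23a alone gave 0.45 ± 0.43 (SE; edgeR adjusted p = 0.878). The direction for Rpl23a thus depends on whether its copies are counted with it.

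**Figure D5:**
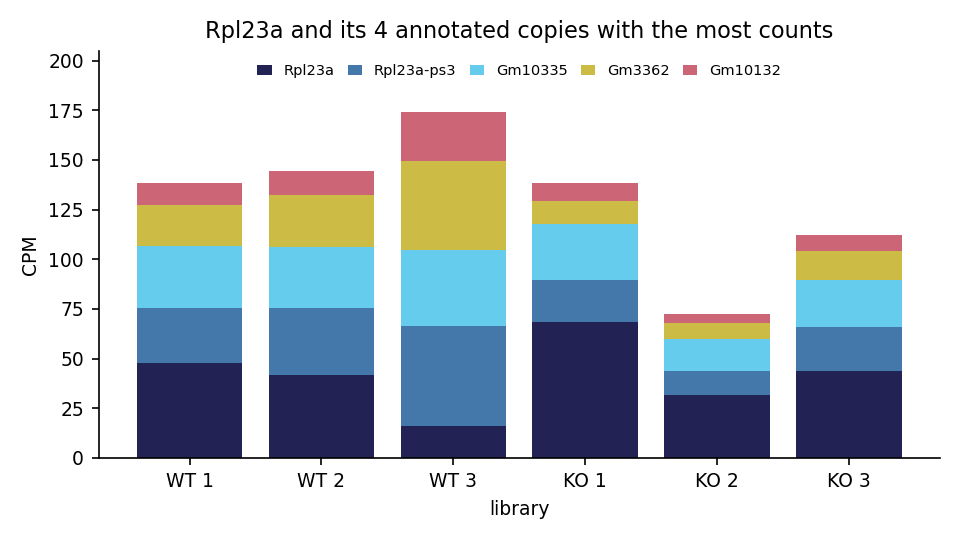
CPM of Rpl23a and of its 4 annotated copies with the most counts, stacked, in each library. Rpl23a itself (darkest) is lowest in WT replicate 3 at 15.9 CPM, while the copies are at their highest there.

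Copies of this kind are common among the members. Leaving out genes that overlap the member's own locus, 26 of the 83 have an exact copy in another annotated gene for more than 50% of their 100-base windows, 47 for some but at most 50%, and 10 for none. Copies annotated as pseudogenes summed to more than 10% of the member's own CPM for 19 members. Copies with another annotation were left out of all copy sums given here. For Rps27, 98.4% of windows have a copy, but 1 of the 2 genes that hold one was summed, giving 0.10%. Counts on 317 named pseudogenes of members amounted to 2.85 to 3.55% of the members' counts in 5 libraries and to 4.84% in WT replicate 3. In that library the copies of Rps29 summed to 13.2 CPM, those of Rps28 to 20.1 CPM, those of Rpl19 to 4.41 CPM and those of Rpl13a to 1.45 CPM, each below the other 2 WT libraries. How reads were divided between members and copies was not tested.

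Paralogues with restricted expression elsewhere were rare in this tissue. Rpl3l, the form of Rpl3 known from heart and skeletal muscle, had 120 counts in all 6 libraries together. In WT it had 0.13, 0.27 and 0.54 CPM, against 780, 819 and 751 CPM for Rpl3. Rpl10l, known from testis, had 0 counts in every library, where 3 counts correspond to 0.0461 CPM in the deepest library and 0.0751 CPM in the shallowest. Rpl39l, also known from testis, had 1, 14 and 7 counts in WT and 2, 0 and 3 in KO, and was not tested in the main fit. Rps27l, a paralogue of Rps27 described as a p53 target, had 107, 103 and 88.3 CPM in WT and 120, 68.3 and 93.6 CPM in KO. Rps27 had 489, 558 and 406 CPM in WT and 615, 288 and 463 CPM in KO, so both followed the score, with slopes of 0.99 for Rps27l and 1.37 for Rps27.

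The intronless members need caution. Rps4l, a processed copy of the Rps4 family, had 10.9, 11.6 and 13.2 CPM in WT and 16.4, 10.7 and 11.4 CPM in KO, but Tmtc1 on the other strand overlaps it with counts of 902% of its own. Rps4x, the X-linked gene, had 820, 884 and 803 CPM in WT and 1112, 593 and 838 CPM in KO. Rpl32l lies within Map7 and had 233 counts in all. Rpl6l had 28.0, 25.7 and 22.3 CPM in WT and 38.5, 24.0 and 26.0 CPM in KO. Its 4 copies annotated as pseudogenes summed to 264% of its own level. That sum leaves out Rpl6, which also holds exact stretches of it. Rpl6 had 539, 550 and 571 CPM in WT and 604, 384 and 491 CPM in KO.

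Genes of the wider translation pathway likewise gave 0 calls. In edgeR's test, 0 of 40 translation factors, 0 of 20 other TOP genes, 0 of 50 biogenesis and RNA polymerase I genes, 0 of 27 mTOR and TOP control genes, 0 of 13 snoRNA host genes, 0 of 78 mitochondrial ribosomal proteins and 0 of 8 ribosomal proteins outside the symbol rule passed. The log2 change was above 0 in 14, 6, 15, 10, 6, 44 and 4 of them, and the medians ran from −0.08 to 0.02. At an unadjusted p under 0.05 there were 1, 0, 1, 1, 0, 0 and 0 genes. Over all genes the share at that p was 8.56%. These 3 of the lists' genes missed the adjusted threshold. They had lower values in all 3 KO libraries than in all 3 WT libraries (7.01% of all genes). Because they were picked by p from the same libraries, this lack of overlap adds no support. Eif2s3x, a subunit of the initiation factor eIF2, had 116, 122 and 129 CPM in WT and 74.9, 95.3 and 110 CPM in KO (edgeR adjusted p = 0.567). Mdn1, an ATPase that remodels the pre-60S particle, had 42.3, 50.4 and 50.8 CPM in WT and 33.4, 41.5 and 34.5 CPM in KO (edgeR adjusted p = 0.492). Ssb, the La protein, had 105, 97.8 and 99.4 CPM in WT and 89.3, 80.7 and 78.6 CPM in KO (edgeR adjusted p = 0.575).

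The ribosomal proteins outside the symbol rule behaved like the members. Rack1, a scaffold on the small subunit, had 816, 811 and 810 CPM in WT and 1006, 595 and 833 CPM in KO. Fau, a ubiquitin-like fusion that yields a small-subunit protein, had 354, 356 and 364 CPM in WT and 472, 260 and 382 CPM in KO. In both, KO replicate 1 was highest and KO replicate 2 lowest. As a list, these 8 genes scored 0.35 in KO replicate 1 and −0.46 in KO replicate 2, close to 0.36 and −0.48 for the members.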

How the data were processed

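Members and gene lists were chosen with earlier results of these data known. Per the deposited files, the authors gave raw counts for every library, plus a normalized signal table that equals the counts times 1 constant per library (0.804 to 1.26). The genome build mm10 and the tools HISAT2 2.2.1, HTSeq 0.9.1, FastQC 0.73 and DESeq2 2.11.40.7 are listed in the submitters' processing notes. The annotation release, the strand setting and the treatment of reads that match several places are not given in these sources.

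The main test on the deposited counts was edgeR 4.0.16 in R 4.3.3 (filterByExpr, TMM, quasi-likelihood fit on genotype, Benjamini-Hochberg over 19599 genes, threshold 0.05). A second fit scaled each library to the members' median. DESeq2 1.42.0, limma 3.58.1 with voom, limma on log2 of the deposited normalized signal plus 1, other scalings and filters, a replicate block and leaving out each library were alternatives. CPM of single genes is per TMM-scaled library size, and sums over lists are per total counts. Scores, slopes and components use log2 CPM with a prior count of 2. Transcript lengths (median of basic protein-coding models) and copies, searched as exact 100-base windows, come from GENCODE M21. The code was tested on simulated data. The smallest p of a permutation of 3 against 3 is 0.1, so single values were given without one.

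No 2 replicates agreed within sampling noise: chi-square divided by its degrees of freedom was 32.5 to 209. The replicate numbers in the sample titles were checked as pairs: deviations from the group means correlated across genes at 0.147, 0.196 and 0.217 for the same number and at −0.223 to 0.061 otherwise. All same-number values were above 0.1, so the numbers were used as pairs in the replicate block, although no source says what links them. Deviations cancel out within each genotype, so the same-number and other correlations are not independent of each other. The contrast between them therefore does not establish pairs. The main fit did not use the pairing, and the standard errors and adjusted p printed for single genes are unpaired. Members named are the highest and lowest 5 by change, by level per length and by departure (5 largest), paralogue pairs and a panel with known roles. Other named members (Rps3, Rps28, Rpl4, Rpl7a), the departure limits, slopes, length bins, motifs, printed promoters and copy sums were chosen after the values were seen. Values of 1 gene of the comparison lists are not reported here.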

Additional observations from a re-analysis of the deposited data

How the results depend on the processing

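No member was called in any of the 14 alternatives, nor in the fit scaled to the members under the alternatives run for it. Counts over all genes moved. Genes called higher and lower numbered 0 and 4 in the main analysis, 4 and 8 with upper-quartile scaling, 47 and 34 without a filter on low counts, 245 and 135 with DESeq2, and 2 and 5 with the replicate block; leaving out single libraries gave 0 to 3 higher and 1 to 4 lower. The cause of these moves was not tested. The median log2 change of the members was −0.05 with the replicate block, and the block changed no member's call. Leaving out single libraries gave medians of −0.24 to 0.17 and log2 ratios of the summed share of −0.22 to 0.18, and 63.7 to 82.1% of the variance on the first component. Without KO replicate 1, 4 of 81 members (Rps14, Rps15a, Rps27a and Rps6) had an unadjusted p under 0.05 in edgeR's test, all lower, against 10.3% of all genes. Without KO replicate 2 only Rps13 of 81 did, higher, against 13.2% of all genes. Without a filter on low counts only Rpl39l of 82 did, lower, against 6.98% of all genes. For single members, 432 of 433 alternative values moved by less than the replicate SD. The exception was Rpl23a summed with its copies (−0.50), chosen after seeing the data. So was the share with all copies annotated as pseudogenes (log2 ratio −0.03). So were the 79 members with a mean of at least 10 CPM (78.8% on the first component). Low depth limits Rpl3l, Rpl32l, Rpl39l and Rpl10l; for the other members the spread between the 3 animals per genotype was wider than counting error.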

Other observations

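Beyond Rpl23a, a copy of Rpl21 also set 1 library apart. Gm10095, annotated as a processed pseudogene that holds exact stretches of the large-subunit gene Rpl21, had 7224, 4690 and 5870 counts in WT replicates 1, 2 and 3 and 9773, 6316 and 17 counts in KO replicates 1, 2 and 3. KO replicate 3, at 0.415 CPM, was far below the 90.4 to 155 CPM of the other libraries. Rpl21 itself had 235 CPM in that library and 182 to 312 CPM in the others, with no departure from the members of 0.3 log2 or more. Another copy, Rpl21-ps15, was highest in WT replicate 3 at 70.9 CPM, against 24.5 to 50.3 CPM elsewhere, the library in which the copies of Rpl23a were also highest. What sets these copies apart in single libraries was not tested.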
